A study of Mus musculus with 170 samples.

Results

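A set of 10 immediate early genes was followed across single cells of the embryonic mouse heart, namely Fos, Fosb, Fosl1, Fosl2, Jun, Junb, Jund, Egr1, Atf3 and Zfp36. They were taken by name, and all 10 were among the 40549 rows of the deposited table. Cells came from the ventricular part of E9.5 hearts of C57BL/6 embryos and were sequenced by Smart-seq2, a full-length cDNA method for single cells picked by hand after digestion with trypsin and collagenase. Control embryos, labelled wild type, carried loxP-flanked Dgcr8 alleles on both chromosomes and a membrane tdTomato/GFP reporter without Cre. The conditional knockout (cKO) embryos carried the same alleles with Cre driven from the Mesp1 locus, which is active in early mesoderm and so deletes Dgcr8 in most heart cells, not in cardiomyocytes alone. Batch here is the sequencing batch that the labels name, and control cells numbered 35 in the first and 39 in the second (74 in all), cKO cells 35 and 34 (69 in all). The labels name no embryo or litter, so each genotype was 1 sample, cells were not replicates, and no test between genotypes was made.

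AP-1 is a transcription factor made of pairs of basic leucine zipper proteins, in which a Jun protein binds a Fos protein, an ATF protein or another Jun protein. Its genes are immediate early genes, which are transcribed within minutes of a growth factor, stretch or stress signal without new protein synthesis, together with Egr1, a zinc finger factor switched on by growth factor signalling. ZFP36 binds AU-rich elements in short-lived messenger RNAs, those of immediate early genes included, and recruits the enzymes that remove their poly(A) tails. Such genes are known to respond to enzymatic digestion of tissue, so each genotype was compared within each sequencing batch and against the other classes of control cells.

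In the mouse annotation (GENCODE M21, GRCm38), Fos lies on chromosome 12 (85473890 to 85477273, forward strand), Fosb on chromosome 7 (19302696 to 19310051, reverse), Fosl1 on chromosome 19 (5447547 to 5455946, forward) and Fosl2 on chromosome 5 (32135801 to 32157842, forward). Jun lies on chromosome 4 (95049034 to 95052222, reverse), Junb on chromosome 8 (84974484 to 84978718, reverse) and Jund also on chromosome 8 (70698949 to 70700616, forward). Atf3 lies on chromosome 1 (191170296 to 191218039, reverse) and Zfp36 on chromosome 7 (28376784 to 28380253, reverse). Jun overlaps the antisense gene Junos, and the reverse-strand gene Junb overlaps the end of Prdx2 on the forward strand. Fosl1, Jund, Atf3 and Zfp36 each overlap 1 annotated gene on the other strand as well. Smart-seq2 does not mark strand, so reads from such overlaps cannot be told apart.

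Promoter sequence from the RefSeq table (GRCm38.p6) was examined for 8 of the 10 genes. The promoters of Egr1 and Fosl1 were not examined, and the position of Egr1 is not reported here. The 250 bases before the start of Fos (chr12:85473640-85473889, forward strand), Jun (chr4:95052223-95052472, reverse strand) and Junb (chr8:84978749-84978998, reverse strand) are printed 5′ to 3′ because these members differed between the genotypes in 3 ways, as described below. Capitals mark the letters TGACG, the core of the cyclic AMP response element, TGACNTCA, the form bound by Jun and ATF proteins, and TATAAA.
Fos: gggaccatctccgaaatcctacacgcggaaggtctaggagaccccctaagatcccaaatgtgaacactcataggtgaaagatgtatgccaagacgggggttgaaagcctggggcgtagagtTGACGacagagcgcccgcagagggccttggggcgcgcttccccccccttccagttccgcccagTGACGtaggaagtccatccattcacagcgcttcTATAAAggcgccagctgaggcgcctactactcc
Jun: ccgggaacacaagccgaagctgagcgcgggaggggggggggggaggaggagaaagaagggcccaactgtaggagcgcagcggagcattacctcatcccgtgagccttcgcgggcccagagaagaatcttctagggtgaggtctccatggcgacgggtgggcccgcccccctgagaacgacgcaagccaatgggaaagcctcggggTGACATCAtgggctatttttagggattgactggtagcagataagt
Junb: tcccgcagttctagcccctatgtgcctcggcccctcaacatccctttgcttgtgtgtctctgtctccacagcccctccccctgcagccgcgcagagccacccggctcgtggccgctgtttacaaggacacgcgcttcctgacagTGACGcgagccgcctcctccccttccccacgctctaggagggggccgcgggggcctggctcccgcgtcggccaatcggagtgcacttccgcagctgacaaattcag
On either strand, TGACG stood in the windows of 4 of the 8 members (Fos, Fosb, Junb and Atf3) and in 17.8% of 32544 promoter windows of the same length. TGACNTCA, which can overlap TGACG, stood in 1 member, Jun, and in 7.43% of all windows. TATAAA stood in 1 member, Fos, and in 12.3% of all windows, the CArG box, bound by serum response factor, in 1 member, Zfp36, and in 1.48%, and the AP-1 letters TGANTCA in no member and in 6.73%. These matches are letters in a window and not measured binding. The Jund window ended 1210 bases from the nearest GENCODE start of that gene, so the match of RefSeq and GENCODE starts was poor there.

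Cells were classed by the expression of 55 marker genes, none of them a member. The cardiomyocyte-like (CM-like) class held 26 control cells, of which 17 were from batch 1, and 63 cKO cells, of which 32 were from batch 1. Control cells further formed an endothelial-like class of 22 cells and an epicardial-like class of 13 cells that also had mesenchymal markers. Dgcr8 itself reached detection in 14 of 26 control and 20 of 63 cKO CM-like cells, where detected means a TPM (abundance per transcript length, scaled to a fixed total per cell) of at least 1, and values per gene also count transcripts that lack the deleted part. The female transcript Xist was detected in 60 of 63 cKO and 0 of 26 control CM-like cells (which allows up to 11.5%), and the Y-linked Ddx3y in 0 of 63 (up to 4.76%) and 17 of 26, so genotype and embryo sex cannot be told apart here. How deeply each cell was sequenced is unknown, because TPM does not record it. The median CM-like cell had 8458 (batch 1) and 9582 (batch 2) genes with TPM above 0 in control and 9877 and 7786 in cKO, and mitochondrial transcripts took a median of 6.24% and 6.42% of TPM in control against 3.11% and 2.61% in cKO.

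**Figure D1:**
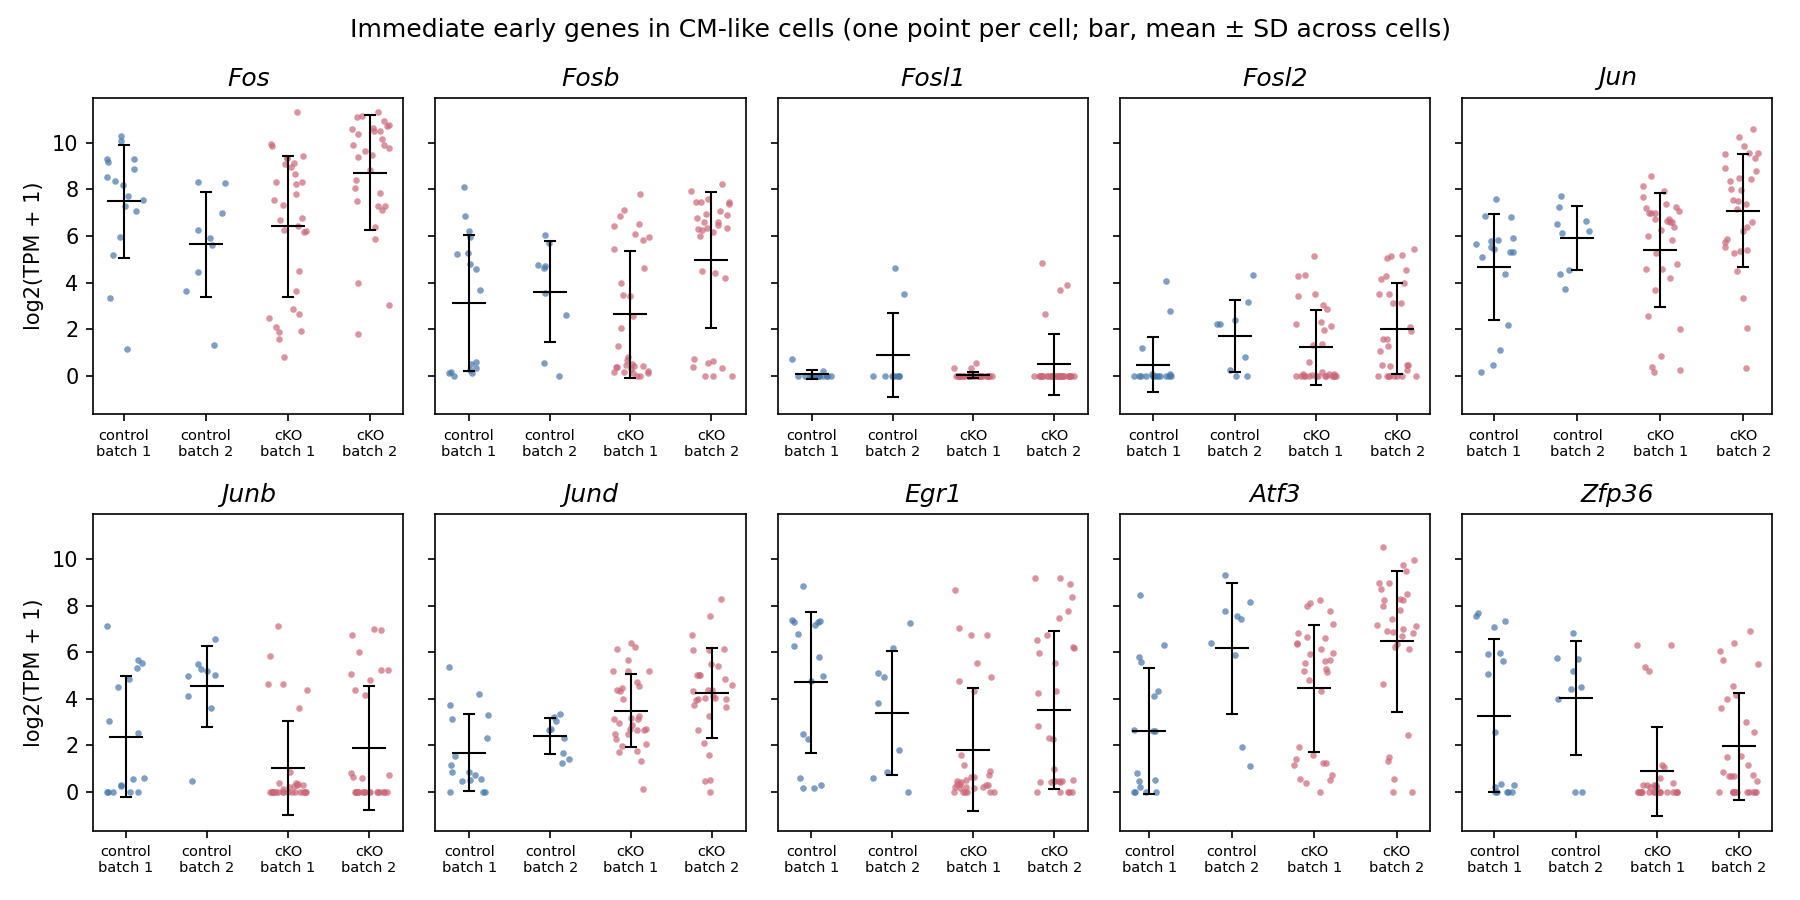
Level of each member in CM-like cells, as log2(TPM + 1) on the vertical axis, by genotype and sequencing batch on the horizontal axis. Each point is a cell, and bars give the mean ± SD across 17 and 9 control and 32 and 31 cKO cells; many cKO cells lie at 0 for Junb and Zfp36, whereas the cKO means of Jund lie above the control means in both batches.

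Within CM-like cells, Junb and Zfp36 were lower and Jund was higher in cKO than in control cells of both batches, each by more than 1 unit of mean log2(TPM + 1). Jun and Fosl2 were also higher in cKO in both batches, by less in at least 1 of them, whereas Fos and Fosb lay on opposite sides of control in the 2 batches. Pooled over batches, 3 of the 10 members were at least 1 log2 unit higher in cKO (Jun, Jund and Atf3) and 3 at least 1 unit lower (Junb, Egr1 and Zfp36). Among the 14961 genes with TPM above 0 in more than 10 CM-like cells, 7.43% were that much higher and 7.19% that much lower. With the 2 batches weighted equally the counts stayed at 3 and 3, but Jun fell to 0.97 and Fos came to 1.01. The limit of 1 unit in each batch was passed by 1 member upwards (Jund) and by 2 downwards (Junb and Zfp36), against 3.22% and 3.38% of all genes. The median difference of the members was 0.60 pooled, above its values of −0.24 in batch 1 and 0.31 in batch 2. Over all genes it was 0.04 pooled, 0.16 in batch 1 and −0.15 in batch 2. Batch 2 supplied 9 of 26 control but 31 of 63 cKO CM-like cells, so pooled differences also depend on these unequal shares. All 10 members passed the filter on low values, Fosl1 with 11 of 89 cells above 0.

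Junb encodes a Jun protein that activates transcription more weakly than Jun and can oppose it. Its TPM in control CM-like cells ran from 0 through a median of 0.53 to 140 in batch 1 and from 0.40 through 31.3 to 95.1 in batch 2. In cKO CM-like cells the median was 0 in both batches, with highest values of 139 and 128. The ranges of the genotypes overlapped. The highest cKO cell was close to the highest control cell in batch 1 and above it in batch 2. Junb was not detected in most cKO cells, and in batch 1 it was not detected in most control cells either. The share of cells with detected Junb was 61.5% in control (16 of 26; exact Clopper-Pearson 95% CI 40.6 to 79.8, counting error only, as in all intervals here) and 25.4% in cKO (16 of 63, 95% CI 15.3 to 37.9). On the log2(TPM + 1) scale Junb averaged 2.38 ± 2.59 (SD across cells, n = 17) in control and 1.04 ± 2.02 (n = 32) in cKO in batch 1, and 4.54 ± 1.73 (n = 9) and 1.89 ± 2.65 (n = 31) in batch 2. The difference was thus −1.33 in batch 1 and −2.65 in batch 2. On the log2 ratio of mean TPM, which weights the few high cells most, it was −0.80.

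Zfp36 differed in the same direction and by a similar amount in each batch. Control CM-like cells ranged from 0 to 203 TPM in batch 1, with a median of 4.99, and from 0 to 113 in batch 2, with a median of 21.7. In cKO cells they ranged from 0 to 79.3 with a median of 0 in batch 1 and from 0 to 118 with a median of 0.65 in batch 2. The ranges overlapped, with the highest values in control cells of batch 1, and a smaller share of cKO cells had the transcript. For Zfp36 this share was 61.5% in control (16 of 26, 95% CI 40.6 to 79.8) and 31.7% in cKO (20 of 63, 95% CI 20.6 to 44.7), and the mean difference was −2.39 in batch 1 and −2.08 in batch 2. Cells with neither Junb nor Zfp36 detected made up 57.1% of the cKO class (36 of 63, 95% CI 44.05 to 69.5) and 26.9% of the control class (7 of 26, 95% CI 11.6 to 47.8). Both were detected in 9 of 63 cKO cells and 13 of 26 control cells. By batch, neither was detected in 22 of 32 cKO and 6 of 17 control cells of batch 1, and in 14 of 31 and 1 of 9 of batch 2. Of control cells, 9 of 17 in batch 1 and 7 of 9 in batch 2 had Zfp36 detected.

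Jund, the Jun gene that many cells express without a stimulus, was higher in cKO cells. The median TPM was 0.83 (range 0 to 40.3) in control and 7.83 (0.11 to 82.5) in cKO in batch 1, and 5.28 (1.40 to 9.32) and 19.4 (0 to 308) in batch 2. Control cells of batch 2 lay in a narrow range, and the median cKO cell of that batch was above the highest of them. Means differed by 1.80 log2 units in batch 1 and 1.84 in batch 2. Pooled over batches, detection of Jund was at 65.4% in control (17 of 26, 95% CI 44.3 to 82.8) and 93.7% in cKO (59 of 63, 95% CI 84.5 to 98.2). The higher share in cKO came from batch 1, where 8 of 17 control cells had it. In batch 2 all 9 control cells had it, whereas cKO cells with 0, 0.37 and 0.45 TPM did not reach detection.

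Jun, the main partner of Fos, was detected in more than 9 in 10 CM-like cells of either genotype (24 of 26 control and 58 of 63 cKO). Its median TPM was 42.3 in control and 89.7 in cKO cells of batch 1, and 72.3 and 180 in batch 2. The highest value was 210 in control and 1558 in cKO, and the mean difference was 0.75 in batch 1 and 1.19 in batch 2. Since TPM is per length, the members of the family can be set against each other within a cell. As a share of the summed TPM of Jun, Junb and Jund, Junb made up a mean of 19.7% ± 23.5 (SD across 15 cells with any of them) in control cells of batch 1 and 28.8% ± 17.8 (n = 9) in batch 2, but 4.91% ± 11.1 (n = 31) and 6.18% ± 14.1 (n = 31) in cKO cells. Jund made up 10.9% ± 19.2 and 8.15% ± 9.33 in control and 27.5% ± 30.02 and 21.1% ± 25.6 in cKO. The share of Jun itself was close in both genotypes, at 69.4% ± 26.3 and 63.04% ± 17.4 in control and 67.6% ± 28.6 and 72.8% ± 27.7 in cKO.

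**Figure D2:**
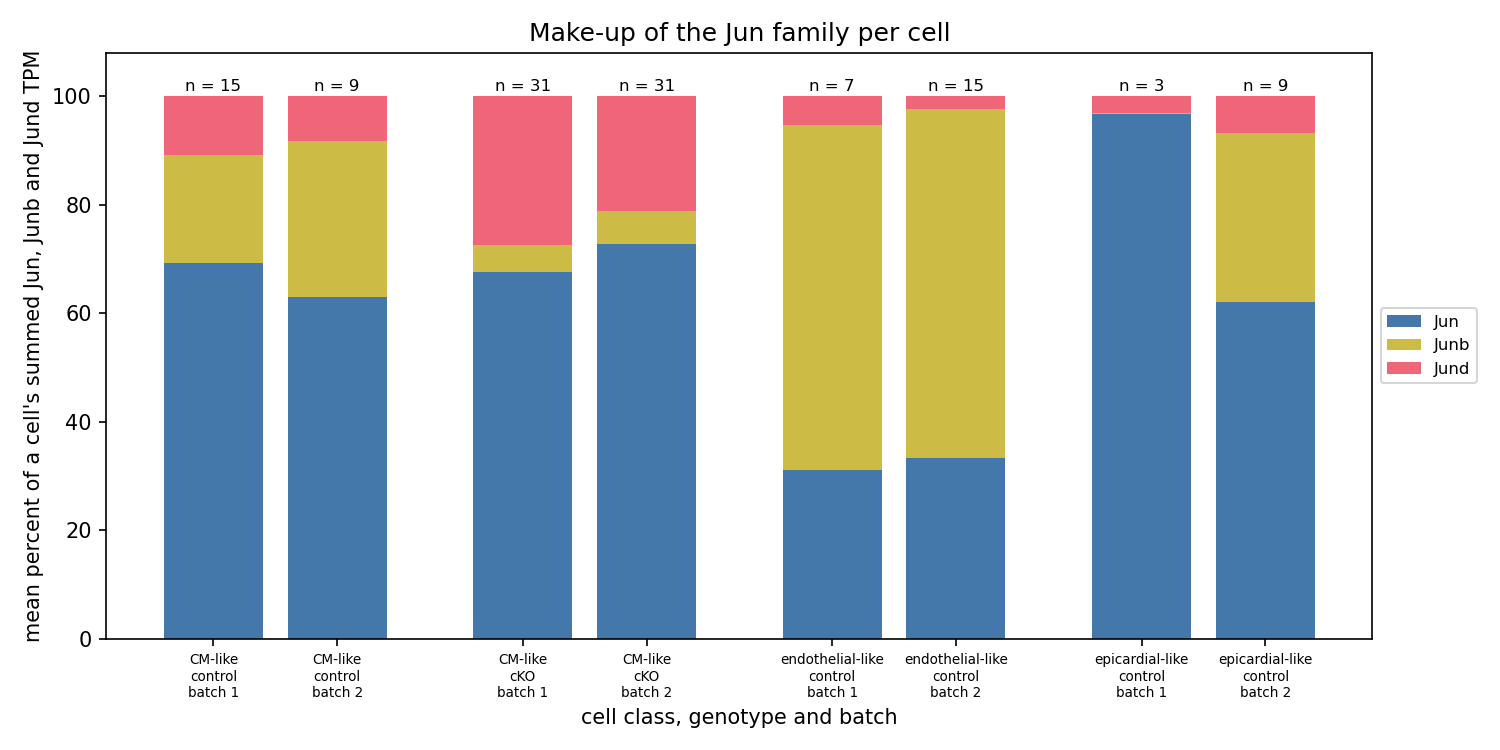
Mean percent of each cell's summed Jun, Junb and Jund TPM that each gene contributed (vertical axis, from 0), by cell class, genotype and batch, with the number of cells with any of the genes at TPM of at least 1 above each bar. Jun leads in CM-like cells of both genotypes, the smaller share is mostly Junb in control and mostly Jund in cKO, and Junb leads in endothelial-like cells.

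Fos was the most widely detected member, in 26 of 26 control and 62 of 63 cKO CM-like cells, and it was also the member whose genotype difference depended most on the batch. In batch 1 its TPM ran from 1.21 through a median of 290 to 1237 in control and from 0.77 through 133 to 2532 in cKO. In batch 2 it ran from 1.53 through 59.7 to 314 in control and from 2.498 through 814 to 2535 in cKO. Control cells were thus higher in batch 1, with wide overlap. They were lower in batch 2, where the ranges overlapped but the median cKO cell was above the highest control cell. The mean difference, cKO minus control, was −1.06 in batch 1 and 3.08 in batch 2. Fosb, a close relative of Fos, differed the same way, with differences of −0.47 and 1.35. Both batch differences rest on few control cells, 17 in batch 1 and 9 in batch 2.

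The mean log2(TPM + 1) of Egr1 was lower in cKO in batch 1 and close in the genotypes in batch 2, where the median TPM and the share of cells with Egr1 (6 of 9 control, 18 of 31 cKO) were still lower in cKO. Its median TPM was 54.3 (range 0.12 to 460) in 17 control cells and 0.36 (0 to 408) in 32 cKO cells of batch 1, whereas in batch 2 it was 13.2 (0 to 152) and 3.97 (0 to 590). Mean log2(TPM + 1) was 4.70 ± 3.03 and 1.82 ± 2.63 in batch 1, a difference of −2.89, and 3.40 ± 2.66 and 3.51 ± 3.38 in batch 2, a difference of 0.11. Atf3, a stress-induced repressor and partner of Jun, differed by more than 1 log2 unit in batch 1 and by less in batch 2. Its median TPM was 5.09 (0 to 346) in control and 41.3 (0 to 301) in cKO in batch 1, and 169 (1.16 to 642) and 141 (0 to 1478) in batch 2. The mean difference was 1.84 in batch 1 and 0.30 in batch 2. For Egr1 and Atf3 the pooled differences were −1.60 and 1.60, and the mean of the 2 batch differences was −1.39 and 1.07. In both genes the larger batch difference was in batch 1. The pooled values also depend on the unequal batch shares of the genotypes.

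The Fos relatives Fosl1 and Fosl2, whose proteins replace Fos after prolonged stimulation, were low in CM-like cells. No cell of batch 1 had detected Fosl1 (0 of 17 control, 0 of 32 cKO), which allows shares of up to 17.6% and 9.38%, and in batch 2 it was found in 2 of 9 and 4 of 31 cells. Fosl2 was seen in 8 of 26 control cells and in 31 of 63 cKO cells, with mean differences of 0.73 in batch 1 and 0.31 in batch 2. Fos was the leading member of its family in 23 of 26 control and 57 of 63 cKO cells.

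**Figure D3:**
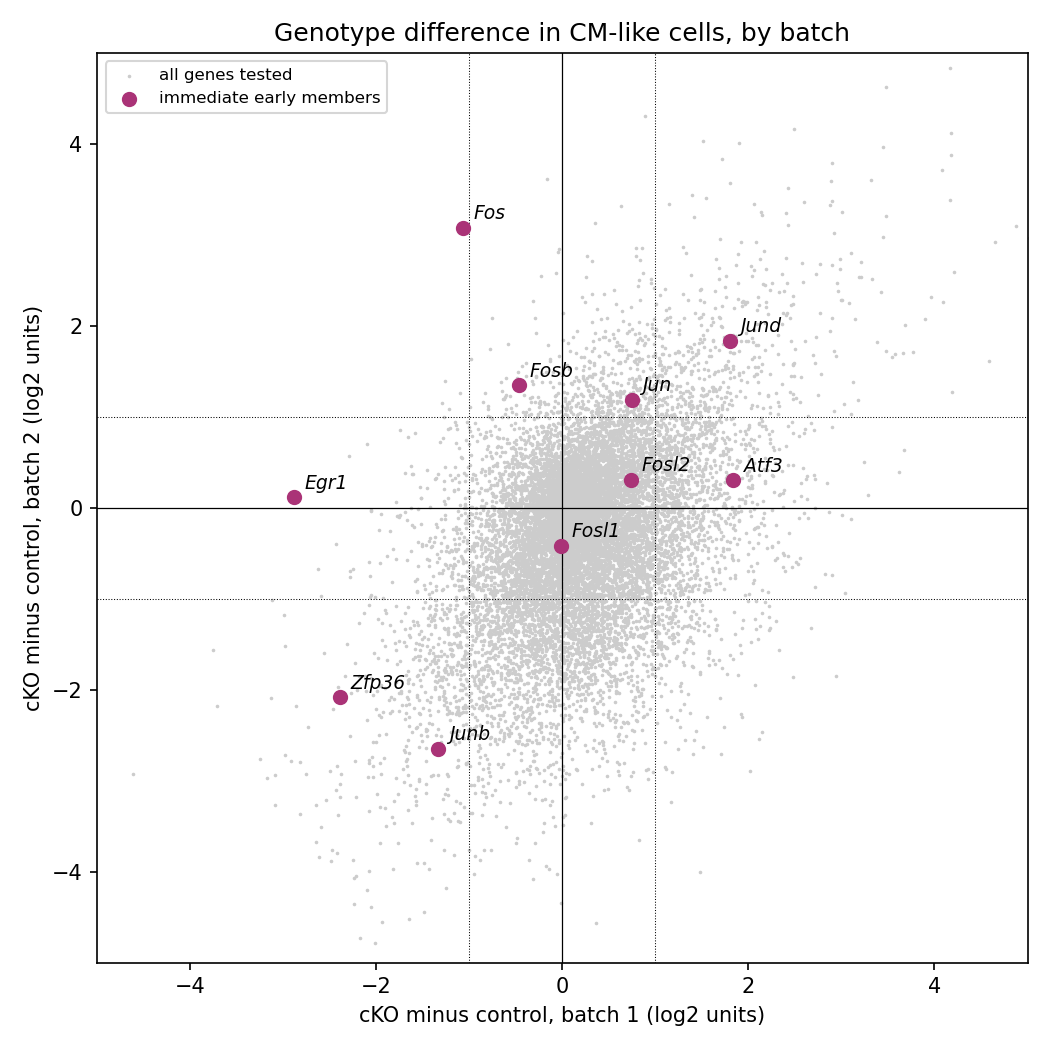
Difference of mean log2(TPM + 1), cKO minus control CM-like cells, in batch 1 (horizontal axis) and batch 2 (vertical axis), for the 10 members and, in grey, the 14961 genes that passed the filter, of which 9 lie outside the axes. Dotted lines mark 1 log2 unit; Jund lies beyond them in the upper right, Junb and Zfp36 in the lower left, and Fos in the upper left.

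The sign of the difference was the same in both batches for 7 of the 10 members (4 higher and 3 lower) and for 57.6% of all genes. Of the 3 lower, Fosl1 differed by only −0.02 in batch 1, where no CM-like cell had it detected. The 3 members whose sign differed between the batches were Fos, Fosb and Egr1.

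The batches themselves differed strongly in these genes. In cKO CM-like cells all 10 members had a higher mean in batch 2 than in batch 1, by 0.45 to 2.32 log2 units, and 6 of them (Fos, Fosb, Jun, Egr1, Atf3 and Zfp36) by at least 1 unit. Of all genes 3.18% were that much higher and 6.12% that much lower in batch 2, and the median gene differed by −0.06. The mean number of members detected per cKO CM-like cell was 5.25 ± 1.44 (SD across 32 cells) in batch 1 and 6.58 ± 1.94 (31 cells) in batch 2, although batch 2 cells had fewer detected genes. In control CM-like cells 4 members (Fosl2, Jun, Junb and Atf3) were at least 1 unit higher in batch 2, where 28.6% of all genes were. Fos and Egr1 were at least 1 unit lower there, with differences of −1.85 and −1.31, where 3.65% of all genes were. The control cells detected 5.35 ± 2.21 members in batch 1 (n = 17) and 7.89 ± 2.03 in batch 2 (n = 9). Atf3 was the member with the largest batch difference in control cells, 3.55 in CM-like and 4.59 in endothelial-like cells, while Fos and Egr1 were lower in batch 2 in both of these classes. Time from dissection to lysis is not in the labels, and the part of handling in these batch differences was not tested.

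**Figure D4:**
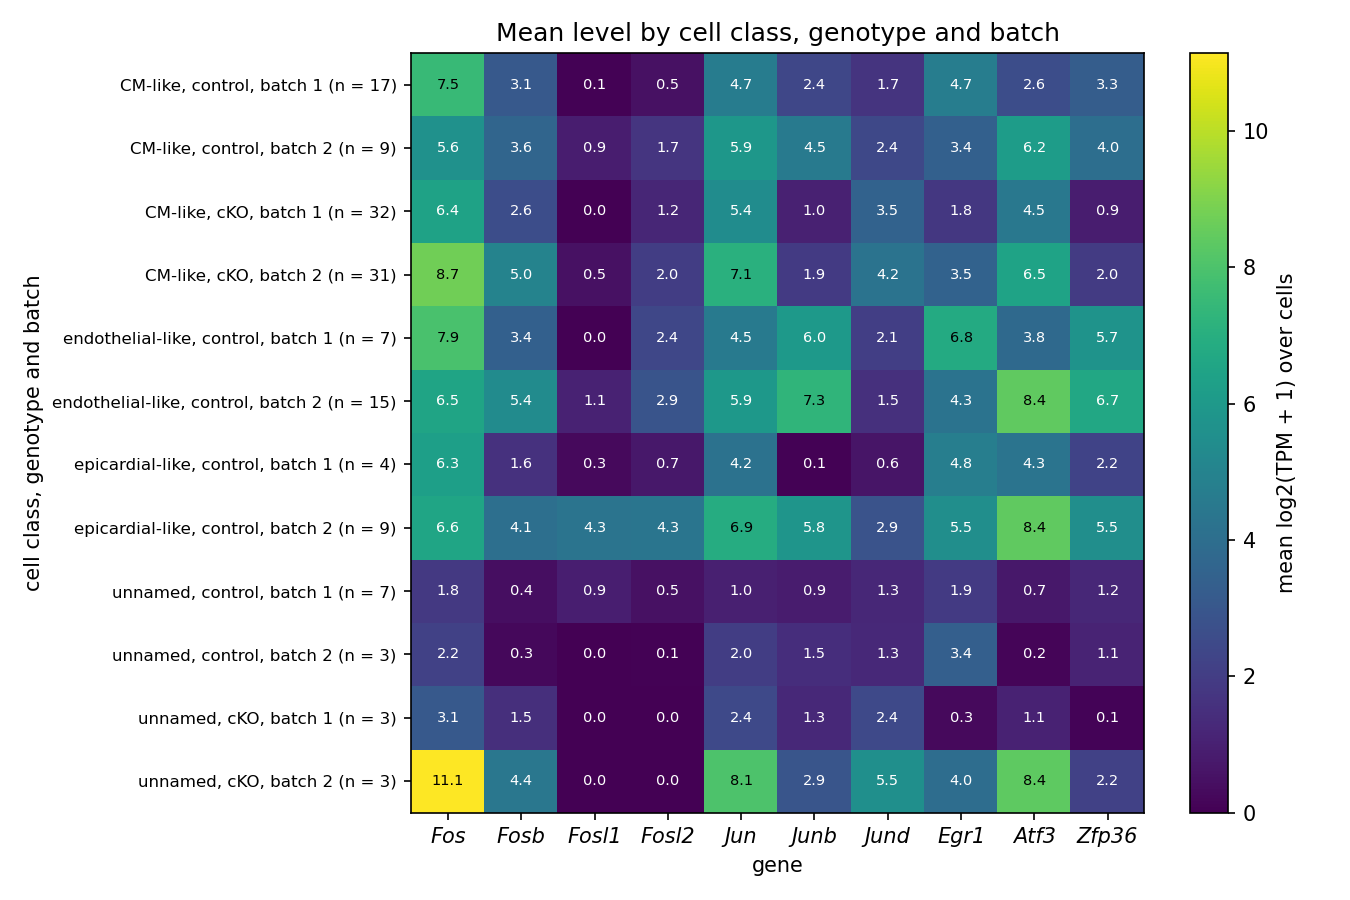
Mean log2(TPM + 1) of each member (columns) by cell class, genotype and batch (rows, with the number of cells), on a colour scale that starts at 0. Junb and Zfp36 are highest in endothelial-like cells, Fosl1 and Fosl2 in epicardial-like cells of batch 2, and most members are low in the unnamed cells other than the 3 cKO cells of batch 2.

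Endothelial-like control cells carried more of these transcripts than CM-like control cells. Junb, Zfp36, Fosl2 and Atf3 were at least 1 log2 unit higher in each batch, 4 of the 10 members beside 10.1% of all genes, and none was that much lower, beside 5.59%. Pooled over batches 5 members passed the limit upwards (20.7% of all genes) and 0 downwards (10.3%). Fosl1 did not pass the filter on low values in this comparison. Junb had a median TPM of 59.7 (7 cells) and 177 (15 cells) in endothelial-like cells of batches 1 and 2, and was detected in 21 of 22. The difference from CM-like cells was 3.62 log2 units in batch 1 and 2.77 in batch 2. Zfp36 differed by 2.44 and 2.64. Junb was the leading Jun gene in 17 of 22 endothelial-like cells and in 4 of 24 CM-like control cells. Jund and Jun, in contrast, were close in the classes, with differences of 0.38 and −0.88 for Jund and −0.13 and 0.02 for Jun. The SD across endothelial-like cells exceeded each of these last differences.

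Because Junb and Zfp36 were higher in endothelial-like cells and lower in cKO CM-like cells, endothelial transcripts in the CM-like cells were examined. The summed TPM of 13 endothelial markers ran from 1.82 to 105 in control CM-like cells (median 24.2) and from 3.09 to 207 in cKO CM-like cells (median 14.4), against 997 to 4110 in endothelial-like cells. By batch the order of these medians turned, at 6.61 in control and 11.2 in cKO in batch 1 and 36.9 and 18.4 in batch 2. In each genotype 11 of the 13 were detected in at least 1 CM-like cell. Pecam1 was the most widely detected, in 25 of 26 control and 63 of 63 cKO CM-like cells at medians of 3.86 and 6.38 TPM, against 228 in endothelial-like cells. Ecscr was found in 10 and 23 of these cells and Icam2 in 11 and 6. The 2 markers not detected in any CM-like cell were Cdh5 and Cd93, which were detected in all 22 endothelial-like cells but in 0 of 26 control (up to 11.5%) and 0 of 63 cKO (up to 4.76%) CM-like cells. The part of endothelial transcripts in the Junb and Zfp36 differences was not tested. The 7 erythroid markers summed to 11701 and 35446 TPM in 2 control CM-like cells of batch 2 and to at most 357 in the other 24. With 6 clusters these 2 cells left the class, and the pooled counts of members stayed at 3 higher and 3 lower.

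Epicardial-like control cells also differed between the batches. In the 4 cells of batch 1, Junb was at 0, 0, 0 and 0.27 TPM, while Fos was at 764, 1.24, 445 and 50.2 TPM. In the 9 cells of batch 2, Junb ran from 0 through 85.8 to 182 TPM, and Fosl1 from 0 through 27.96 to 361 TPM. Fosl1 was detected in 6 of these 9 cells against 2 of 9 CM-like control cells of the same batch. Fosl2 was detected in all 9, with a mean log2(TPM + 1) of 4.33 ± 1.30. With 4 cells in batch 1, the batch difference in this class rests on very few cells.

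Across CM-like cells of the same batch and genotype, the members did not vary as a single group. Fos, Fosb, Jun and Egr1 were positively correlated from cell to cell in both genotypes. Pearson r of log2(TPM + 1), with batch means removed, was 0.67 for Fos and Egr1 across 26 control cells and 0.60 across 63 cKO cells, and it was 0.46 and 0.59 for Fos and Jun. Fosb had lower r in control, 0.32 with Jun and 0.40 with Egr1, than in cKO, 0.49 and 0.59. Some control pairs with other members were above these control values, such as Junb with Egr1 (0.58) and Fos with Zfp36 (0.49), but Junb with Fosb had −0.01. Zfp36 followed Egr1 with r = 0.72 in control but 0.28 in cKO cells, and Atf3 with r = 0.62 and 0.26, and whether these differ was not tested. Jund followed the mean of the other 9 members with r = 0.13 in control and 0.14 in cKO, the lowest with Fosl1 and Fosl2 (0.12 to 0.21). In control cells this r was highest for Zfp36 (0.75), Egr1 (0.73), Fos (0.62) and Atf3 (0.58), ahead of Jun (0.50) and Fosb (0.47). In cKO cells it was highest for Fos (0.75), Fosb (0.64), Egr1 (0.64) and Jun (0.62). These correlations are across cells that share a library type and the TPM total. In control cells several members also went with the number of detected genes (r = 0.54 for Fos, 0.56 for Junb, 0.40 for Zfp36), but Fosl2 (0.12) and Jund (−0.14) did so little or not. In cKO cells this differed by batch, with r = −0.02 for Fos and −0.26 for Egr1 in batch 1 and 0.56 and 0.49 in batch 2. The part of detection in the correlations was not tested.

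**Figure D5:**
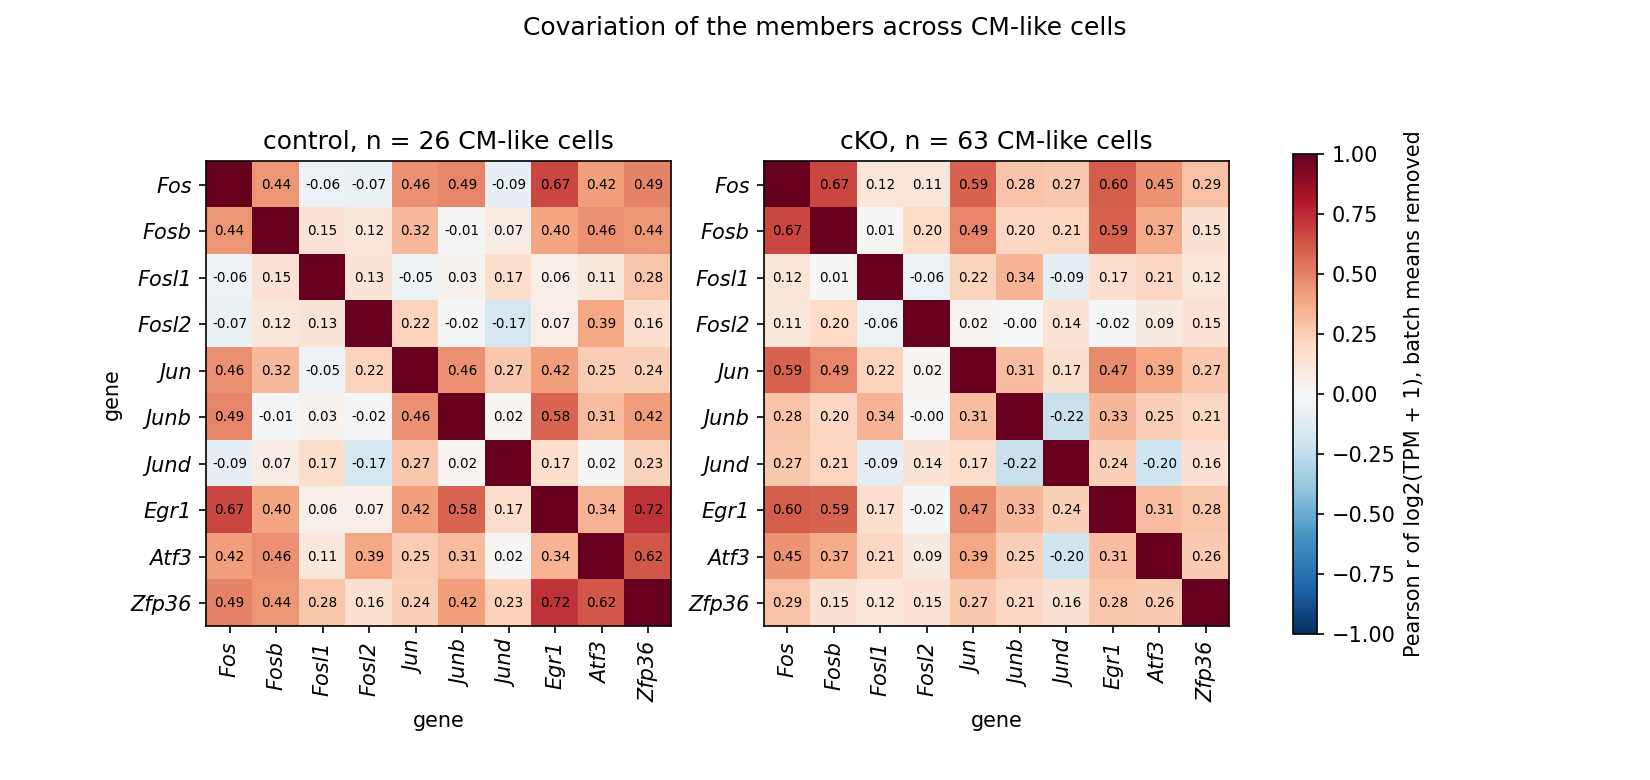
Pearson r between members across 26 control (left) and 63 cKO (right) CM-like cells, from log2(TPM + 1) with batch means removed; the colour scale runs from −1 to 1. Fos, Fosb, Jun and Egr1 are positively correlated in both panels, whereas Jund, Fosl1 and Fosl2 are near 0 with most members.

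Likeness to the mean of the members was measured over every gene. Over all 143 cells, with the means of genotype, batch and class removed, the 10 highest r among 12191 genes detected in at least 20 cells belonged to Dusp1, Btg2, Klf6, Csrnp1, Plk2, Ccnl1, Sertad1, Sqstm1, Klf4 and Elp3, from 0.62 for Dusp1 to 0.45 for Elp3, where the median gene had 0.11. Dusp1, a phosphatase that shuts off MAP kinases, had r = 0.55 in control and 0.58 in cKO CM-like cells. Its mean difference between the genotypes was −0.57 in batch 1 and −0.27 in batch 2. Of the 10, 5 were in the lists below.

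Of 33 other immediate early genes, 28 passed the filter. Pooled, 5 were at least 1 log2 unit higher in cKO than in control CM-like cells (7.43% of all genes). A further 3 were at least 1 unit lower (7.19%). Their pooled median difference was −0.24, whereas batch 1 alone gave 0.02 and batch 2 alone −0.66. Rhob, a small GTPase of the actin cytoskeleton, was higher by 2.06 in batch 1 and 3.34 in batch 2 and detection was 15 of 26 in control, 57 of 63 in cKO. Klf2, a flow-responsive factor, was higher by 1.10 and 1.76, with detection in 4 of 26 and 28 of 63. Nfkbia, the inhibitor of NF-kappaB, had differences of −1.34 and −2.43. In cKO cells 10 of the 28 were at least 1 unit higher in batch 2 than in batch 1 and 0 lower (3.18% and 6.12% of all genes).

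Of 13 chaperones known from dissociated tissue, 12 passed and 2 were at least 1 unit lower in cKO, in each batch (Hsph1, −1.54 and −2.63, and Hspe1, −1.17 and −1.39, beside 3.38% of all genes), and none higher. In this and the following lists pooled counts stand beside 7.43% of all genes higher and 7.19% lower. Hspd1, the partner of Hspe1 in mitochondria, had differences of −0.47 and −1.74. The pooled median of the chaperones was −0.65, whereas batch 1 alone gave −0.09 and batch 2 alone −1.05. Among 14 dimer partners of AP-1, 11 passed and 1 was at least 1 unit higher, Atf7 (1.02 and 0.91). Among 17 upstream kinases and serum response factors all passed, and 3 were higher and 0 lower. Map2k1, which encodes the kinase MEK1, was higher by 2.47 in batch 1 and 0.95 in batch 2, and Mapk3 by 0.64 and 1.78. Pooled over batches the median of this kinase list was 0.28, higher than either batch alone gave. Batch 1 alone gave 0.15 and batch 2 alone −0.41, so its sign turned between them.

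Of 10 feedback inhibitors of growth factor signalling all passed, with 0 higher and 1 lower by 1 unit, Spry2 (−0.43 and −1.62). Spred1 was higher by 1.501 and 0.24, and Spry4 had −0.62 and −0.73. Of 9 relatives of Zfp36 and deadenylase subunits all passed, and 2 were higher and 0 lower (7.43% and 7.19% of all genes, as for the lists beside it, where counts of 0 or 1 are near these shares). The subunit Cnot6 was higher by 0.35 and 3.13, while Zfp36l2 differed by 0.00 and −1.58 and Cnot2 by −0.68 and −0.72. Of 10 AP-1 target genes 7 passed, with 1 higher, Cd44 (2.70 and 0.36), and 0 lower, and Timp1 had −0.76 and −1.25 and Mmp14 0.31 and 1.05. The pooled medians of these lists were −0.18, 0.18 and 0.51. By batch the feedback inhibitors had 0.29 and −0.50, the relatives of Zfp36 and deadenylase subunits 0.43 and −0.33, and the AP-1 target genes 0.32 and 0.25. The sign thus turned between the batches for all but the AP-1 target genes.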

How the data were processed

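The authors deposited a table of TPM per gene and cell, which they obtained with Salmon against mm10 with GFP and tdTomato added; its version and the annotation release are not given in the sources used here. Cells with a low mapping rate, or with a reporter that contradicted their genotype, had been removed before deposit. Reads carry no molecular identifiers. The table held 143 cells, and 27 of 170 labelled samples were not analysed here. Sums of TPM ran from 996133 to 999999. Values were analysed as log2(TPM + 1), which understates differences of low genes; a difference of at least 1 was counted. Cells were clustered by Ward linkage on 55 markers (5 clusters) and named by markers, with no doublet caller because cells were picked by hand. A cluster led by mitochondrial transcripts stayed unnamed. Named genes were the members, up to 3 genes per list with the largest pooled difference and equal sign in both batches, and the 10 genes most like the member mean. A gene named by this rule is not reported here. The members and lists were chosen with earlier results of these data known. The code was tested on simulated data (Python 3.11.15, scipy 1.17.1). Alternatives changed the pseudocount, the summary, the batch, the clusters, the cells and the TPM total.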

Additional observations from a re-analysis of the deposited data

How the results depend on the processing

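No paired analysis was possible because the labels do not say what the numbers in the cell titles stand for, and no test was run. Each member's difference between cKO and control CM-like cells was recomputed under 12 alternatives, and 117 of these 120 values did not change sign (Fosl1 came to 0 with medians). The exceptions were Fos (−1.06) and Fosb (−0.47) in batch 1 alone and Egr1 (0.11) in batch 2 alone. Over the alternatives Junb ran from −3.88 to −0.67, Zfp36 from −4.16 to −1.12 and Jund from 0.96 to 2.52.

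With a pseudocount of 10, 1 member was at least 1 log2 unit higher and 1 lower in cKO, against 3 and 3, and 3 members were higher in endothelial-like cells, against 5; a larger pseudocount shrinks differences by construction. The log2 ratio of mean TPM left 1 member lower. With 4 clusters, which add the unnamed cells to the CM-like class, 5 members were higher in cKO and 8 in endothelial-like cells, the median difference was 0.98 against 0.60, and cKO cells detected 0.48 more members per cell, against −0.33. The median difference was −0.24 in batch 1 alone, and the difference in members detected was −1.31 in batch 2 alone. Without the filter on low values 4.65% of genes were at least 1 unit higher and 4.52% lower in cKO, against 7.43% and 7.19%, since more low genes enter. For the shifts between batches the cause was not tested. With 9 control CM-like cells in batch 2 and unknown depth, absent and undetected transcripts cannot be told apart.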

Other observations

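The unnamed cluster, 10 control and 6 cKO cells, had a median mitochondrial share of 45.9% of TPM in control and 15.8% in cKO and held few immediate early transcripts in control, with 2.90 ± 2.33 members detected per cell (SD, n = 10). In its 3 cKO cells of batch 2, Fos was at 1778, 1890 and 3445 TPM, the last of these the highest Fos value of all cells, and Atf3 at 66.2, 427 and 1309 TPM. In its 3 cKO cells of batch 1, Fos was at 11.1, 17.97 and 1.88 TPM. The order of the batches was thus the same as in cKO CM-like cells.

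Cell titles begin with a number, 1 to 6 in batch 1 and 7 to 12 in batch 2, whose meaning the labels do not give. Averaged over the 10 members, the mean log2(TPM + 1) of cKO CM-like cells ran from 1.92 to 3.17 across the 6 numbers of batch 1 (4 to 7 cells each) and from 3.29 to 5.26 across the 6 of batch 2 (3 to 7 cells each), without overlap. In control CM-like cells it ran from 1.66 to 4.51 in batch 1 (1 to 5 cells each) and from 0.94 to 4.69 in batch 2 (1 to 2 cells each), with overlap.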
